A study of Homo sapiens with 2 samples.

Results

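The 35 genes described here encode subunits of the proteasome and of its activators. They were taken by name: 7 alpha and 7 beta subunits of the core particle (PSMA1 to PSMA7, PSMB1 to PSMB7), the 6 ATPases of the regulatory particle (PSMC1 to PSMC6), 3 further subunits of its base (PSMD1, PSMD2, PSMD4), 8 subunits of its lid (PSMD3, PSMD6, PSMD7, PSMD8, PSMD11, PSMD12, PSMD13, PSMD14) and 4 activator genes (PSME1 to PSME4). They stand among 25545 genes with values in both libraries, of which 11504 reached 1 FPKM in at least 1 of them. Shares and medians of all genes given below are over those 11504, unless a narrower set is named. FPKM counts fragments per length of transcript and per depth of the library, and each of the 35 genes reached at least 2.61 FPKM in both.

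RNA was sequenced from A549 cells, a human lung adenocarcinoma line, labelled as non-small cell lung cancer. The control library is of cells that carried an shRNA to LacZ (shLacZ), a bacterial gene with no human counterpart. The other is of cells with an shRNA to PSPC1 (shPSPC1, the knockdown), an RNA-binding protein of paraspeckles. Each group had 1 library, so the groups could not be tested against each other and no difference given here rests on replicates. The sources used here do not say whether the cells were a pool or a clone, or how many shRNA sequences were used. Values after ± come from the half-widths of the 95% intervals that Cufflinks wrote for transcripts, squared, summed and rooted where a gene has several. They cover error inside a library and no variation between cultures.

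The deposited intervals imply depths of 56200000 fragments for shLacZ and 57100000 for shPSPC1 cells. PSPC1 itself was at 31.5 ± 1.25 FPKM in shLacZ cells and 17.7 ± 0.858 FPKM in shPSPC1 cells, which is 56.3% of the control level. The epithelial keratin genes KRT7, KRT8 and KRT18 were between 632 and 1450 FPKM in both libraries, while EPCAM was at 3.87 and 2.85 FPKM and CDH1 at 8.21 and 6.59 FPKM. The 5 epithelial genes summed to 3492 FPKM in shLacZ and 2789 FPKM in shPSPC1 cells, and the part of that difference in the values below was not tested. PTPRC, a gene of blood cells, was at 0.0037 FPKM in both, CD14, a monocyte gene, at 2.07 and 1.89 FPKM, and COL1A1, a fibroblast collagen gene, at 0.529 and 0.398 FPKM. These are bulk values, so a lower level in every cell and a loss in some of the cells cannot be told apart.

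The proteasome is the main machine that degrades ubiquitin-tagged proteins in the cytosol and nucleus. Its core is a barrel of stacked alpha and beta rings, with the proteolytic sites inside the beta rings. The regulatory particle caps the barrel: its base holds receptors for ubiquitin, its lid removes ubiquitin, and its ATPase ring unfolds the chain and threads it into the core. In cells exposed to interferon, the catalytic subunits PSMB6, PSMB7 and PSMB5 can be replaced by PSMB9, PSMB10 and PSMB8, and the activator of PSME1 and PSME2 is also inducible by interferon. When proteasome activity is low, the transcription factor NFE2L1 activates subunit genes together through antioxidant response elements in their promoters.

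Promoter sequence is shown for PSME1 and PSME2, which by estimated fragments had the lowest log2 ratios after PSMC1, and for PSMB3, a core gene with a match to the same motif and a ratio near 0. Of the 35 genes, 30 matched a RefSeq promoter table on GRCh38.p14, with 36 promoters of 300 bases each. The letters TGACNNNGC, the core of the antioxidant response element, were found on either strand in 10 of those 36 promoters (27.8%) and in 13.3% of 35116 promoters of that length. CCAAT was found on either strand in 16 of the 36 (44.4%) and in 34.6% of all promoters. The letters GAAANNGAAA, part of the interferon-stimulated response element, were chosen for a search after the values of PSME1 and PSME2 had been seen. They were found on either strand in 4 of the 36 (11.1%), in the genes PSMA4, PSMB4, PSME1 and PSME2, and in 3.57% of all promoters. A match is a description of letters, not of binding. In the stretches below, written 5′ to 3′ on the strand of the gene, capitals mark the matched letters. They are from chr17:38752587-38752695 on the plus strand (PSMB3, match at position -104 from the annotated start), chr14:24136058-24136166 on the plus strand (PSME1, position -86) and chr14:24146727-24146835 on the minus strand (PSME2, position -175). The last is from chr14:24146611-24146688 on the minus strand (PSME2, interferon element, position -28).
PSMB3, antioxidant response core: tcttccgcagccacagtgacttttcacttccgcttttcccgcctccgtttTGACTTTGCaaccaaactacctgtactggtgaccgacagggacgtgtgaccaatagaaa
PSME1, antioxidant response core: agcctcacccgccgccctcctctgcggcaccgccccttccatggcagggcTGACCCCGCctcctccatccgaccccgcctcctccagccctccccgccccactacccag
PSME2, antioxidant response core: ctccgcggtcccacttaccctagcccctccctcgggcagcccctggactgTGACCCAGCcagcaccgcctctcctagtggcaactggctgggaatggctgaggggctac
PSME2, interferon element: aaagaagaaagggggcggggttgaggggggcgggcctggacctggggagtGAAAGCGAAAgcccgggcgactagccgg
By the starts of the promoter table, PSME2 holds both kinds of motif upstream. The GAAANNGAAA match of PSME1 lies at position 5, after its start in that table, on the opposite strand. Transcripts of the files were not placed on that build, so the matches may lie differently around their starts.

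Most subunit genes were at nearly the same level in both libraries. The summed FPKM of the 35 genes was 3102 in shLacZ cells and 3223 in shPSPC1 cells, a difference of 3.93%. In place of a test, a gene was called when it had at least 1 FPKM in the library where it was higher, a log2 ratio (knockdown over control, pseudocount of 1 FPKM) of 1 or more in size, and intervals that did not overlap. By summed FPKM, the sum over a gene's transcripts, 2 of the 35 genes were called higher (PSMB2 and PSMC6), where 1.7% of all genes were, and 1 was called lower (PSMC1), where 2% were. Called genes in either direction made up 3.7% of all genes.

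All 3 of these calls depended on which transcripts had been assembled at the locus in each file. A short transcript needs few fragments to reach a high FPKM, so each gene's FPKM was also turned into estimated fragments. These are FPKM times effective length, summed over the gene's transcripts. For ratios the sum was divided by the effective length of the longest annotated transcript, to return to FPKM. By estimated fragments none of the 35 was called higher, where 1.55% of all genes were, and 1 was called lower, again PSMC1, where 1.68% were; in either direction 3.22% of all genes were called. When assembled transcripts with at least 0.5 of their exonic bases in a gene were joined to it too, none of the 35 was called by estimated fragments, where 2.91% of all genes were. Estimated fragments with that joining were chosen as a measure after the data had been seen. On that measure 25 of the 35 lay within 0.15 of a log2 ratio of 0, and 51.2% of all genes did.

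**Figure D1:**
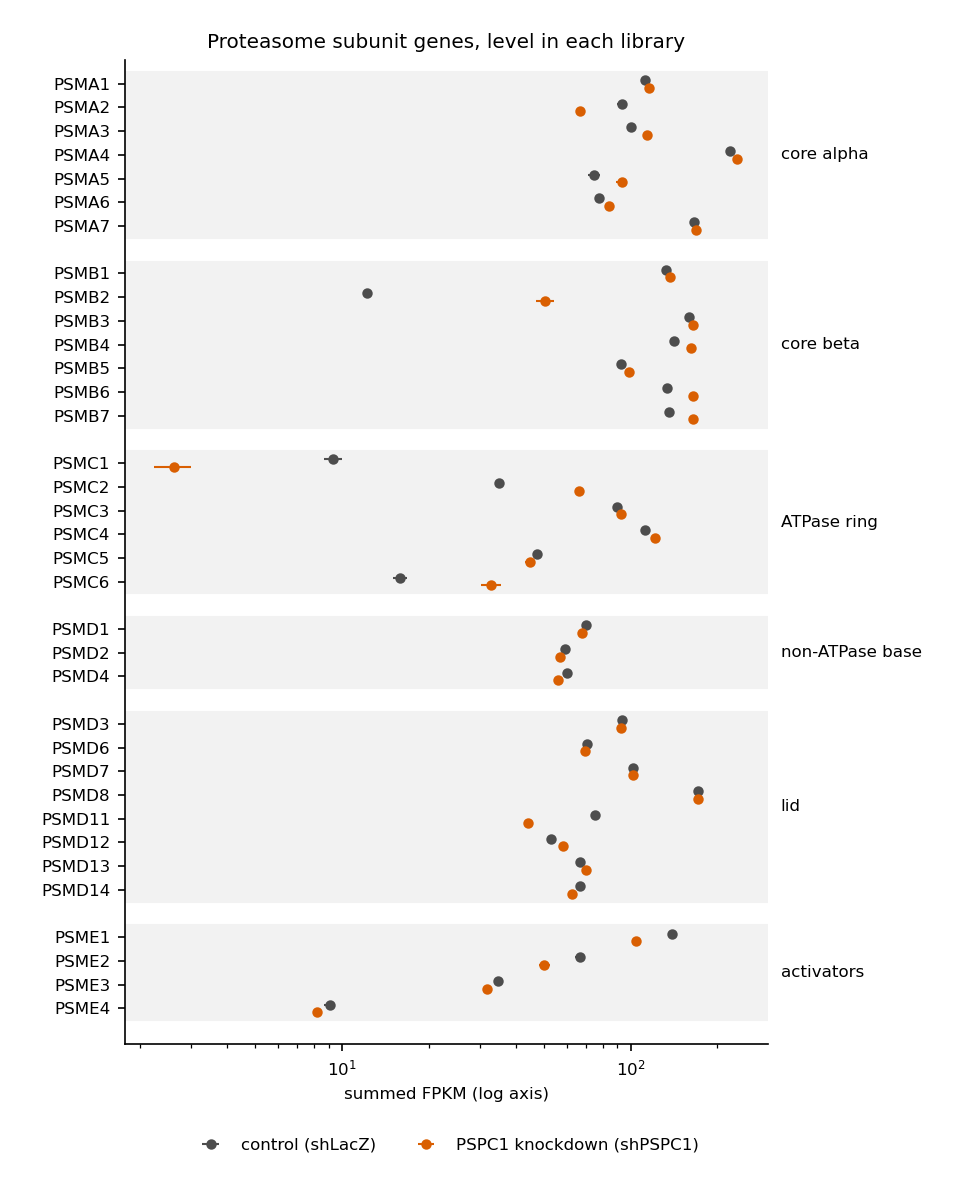
Summed FPKM of the 35 genes (log axis) in the control (grey) and the shPSPC1 library (orange), grouped by particle. Bars are the ± values within each library, combined from the 95% Cufflinks intervals of transcripts. Most pairs of points lie close together, PSMB2, PSMC2 and PSMC6 are well to the right in shPSPC1 cells, and PSMC1, PSMD11 and PSMA2 are to the left.

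The particles differed in where their genes lay around 0. By estimated fragments all 14 core genes had a log2 ratio above 0, between 0.03 and 0.29 with a median of 0.10, against 50.9% of all genes above 0 and 49.1% below, and a median of 0.01. By summed FPKM 13 of the 14 were above 0, the exception being PSMA2, where 51% of all genes were above 0 and 49% below. The intervals of 8 core genes were apart with the higher value in shPSPC1 cells, as for 24.3% of all genes, and none was apart in the other direction, as for 24.4%. By summed FPKM the intervals of 26% of all genes were apart with a higher and those of 25.6% with a lower value. By estimated fragments the 21 genes outside the core had a median of 0.00, with 11 above 0. Among them the 6 ATPase genes had a median of 0.09, with 4 above 0 and 2 below. That median was the same as for the 7 alpha genes (0.09), while the 7 beta genes were at 0.19. The lid was at 0.00, the other base subunits at -0.05 and the activators at -0.26. Core genes have short transcripts, with a median longest annotated transcript of 1025 bases against 1717 bases for the other 21. Among all 1881 genes with a longest transcript under 1500 bases, the median was 0.03 and 54.8% lay above 0. Among the 9623 longer genes the median was 0.00 and 50.2% lay above 0. The part of transcript length in the core values was not tested.

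The alpha subunits form the outer rings of the core and gate its entry. Their summed FPKM was 845 in shLacZ cells and 876 in shPSPC1 cells. PSMA4 was the most abundant of all 35 genes in both libraries, at 221 ± 3.85 and 233 ± 3.93 FPKM, a log2 ratio of 0.08. PSMA7 was at 165 and 169 FPKM, PSMA1 at 112 and 116, PSMA3 at 101 and 114, and PSMA6 at 77.5 and 84.1. The knockdown value was above the control value for each of these 5 genes, and the intervals were apart for PSMA3, PSMA4 and PSMA6 by estimated fragments.

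PSMA2 and PSMA5 had values that depended on the measure. PSMA2 was at 93.5 ± 3.66 FPKM in shLacZ cells and 66.9 ± 1.90 FPKM in shPSPC1 cells, a log2 ratio of -0.48. The control file held 3 assembled 8-exon transcripts of 886 to 894 bases that were absent from the shPSPC1 file, at 26.5, 24.6 and 17.7 FPKM, beside the annotated transcript of 1466 bases at 24.7 FPKM. In the shPSPC1 file the annotated transcript alone carried the gene. By estimated fragments PSMA2 had 4623 and 4976, a log2 ratio of 0.09, so the sign differed between the measures. PSMA5 was at 74.8 ± 3.49 and 93.0 ± 4.15 FPKM (log2 ratio 0.31), nearly all in assembled transcripts under 1000 bases that differed between the files, 2 in shLacZ cells and 3 in the shPSPC1 file. Its annotated transcript of 3826 bases carried 7.34% and 7.53% of that FPKM, and its estimated fragments were 3679 and 4233, a log2 ratio of 0.17.

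The beta subunits form the inner rings, and PSMB6, PSMB7 and PSMB5 carry the caspase-like, trypsin-like and chymotrypsin-like sites. PSMB6 was at 134 ± 3.71 FPKM in shLacZ cells and 164 ± 4.09 FPKM in shPSPC1 cells, and PSMB7 at 136 ± 3.37 and 164 ± 3.68 FPKM. By estimated fragments their log2 ratios were 0.29 (0.22 to 0.37) and 0.27 (0.20 to 0.34), the 2 largest of the core, and both were well under the limit of 1. PSMB5, the chymotrypsin-like subunit, was at 92.8 ± 2.86 and 98.5 ± 3.02 FPKM, and by estimated fragments its log2 ratio was 0.06, with intervals that overlapped. The structural subunit PSMB4 was at 142 ± 3.63 and 162 ± 3.86 FPKM (log2 ratio 0.19). PSMB3, the beta gene with the highest value in both libraries, was at 159 ± 4.38 and 165 ± 4.43 FPKM (0.05), and in shPSPC1 cells its interval overlapped those of PSMB4, PSMB6 and PSMB7. PSMB1 was at 133 ± 4.93 and 137 ± 4.26 FPKM, and its log2 ratio was 0.04 by summed FPKM and 0.21 by estimated fragments. It had a 637-base assembled transcript in the shLacZ file alone, at 42.6 FPKM, and its annotated transcript was at 65.6 and 105 FPKM.

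PSMB2, a structural subunit of the beta ring, showed the largest log2 ratio of the 35 by summed FPKM. It was at 12.2 ± 0.436 FPKM in shLacZ cells and 50.6 ± 3.65 FPKM in shPSPC1 cells, a log2 ratio of 1.96 (1.81 to 2.11). The gene lies at chr1:36065142-36107445 on the minus strand in the coordinates of the files. Its annotated 6-exon transcript of 4744 bases was at 12.2 and 10.2 FPKM. The knockdown file also held an assembled 5-exon transcript of 422 bases at 40.4 FPKM, with an intron chain that the shLacZ file lacked. That transcript carried 79.8% of the gene's FPKM in shPSPC1 cells but 18.2% of its estimated fragments (595 of 3263). The control library had 3150 fragments, so by estimated fragments the log2 ratio was 0.03 (-0.07 to 0.12) and the intervals overlapped.

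The ATPases unfold substrates and open the gate of the core. PSMC1 was at 9.31 ± 0.682 FPKM in shLacZ cells and 2.61 ± 0.381 FPKM in shPSPC1 cells, a log2 ratio of -1.51 (-1.77 to -1.27) with 745 and 212 estimated fragments. It was the gene called lower by summed FPKM and by estimated fragments, at chr14:90722894-90738966 on the plus strand. The knockdown file also held an assembled piece with a strand but no intron at chr14:90738564-90738903, of 340 bases and 51.4 ± 4.64 FPKM, with 516 fragments. Of its bases, 287 lay in the last exon of PSMC1 and 53 just before it, and the shLacZ file held no such piece. With it, PSMC1 had 728 fragments in shPSPC1 cells against 745 in shLacZ cells, 96.0% of the control number after scaling to depth. PSMC1 also has 13 numbered pseudogenes in the RefSeq gene table, so its value is uncertain where fragments were shared with such copies.

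PSMC6 was at 15.9 ± 0.889 FPKM in shLacZ cells and 32.8 ± 2.62 FPKM in shPSPC1 cells, a log2 ratio of 1.00 that just passed the limit. The control file held the annotated 14-exon transcript of 1593 bases alone, with 1280 fragments. In the shPSPC1 file that transcript was at 3.20 FPKM, beside assembled transcripts of 11 exons (1223 bases) at 14.2 FPKM, 6 exons (452 bases) at 13.8 FPKM and 12 exons (3305 bases) at 1.57 FPKM. The 452-base transcript held 42.1% of the gene's FPKM and 13.9% of its fragments. By estimated fragments PSMC6 had 1280 and 1630, a log2 ratio of 0.31 (0.15 to 0.47), with intervals apart.

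PSMC2 was at 35.1 ± 0.967 FPKM in shLacZ cells and 66.3 ± 2.07 FPKM in shPSPC1 cells, a log2 ratio of 0.90 by summed FPKM and 0.35 by estimated fragments. Its annotated transcript was at 35.1 and 18.1 FPKM. The knockdown file alone held a 13-exon transcript at 27.9 FPKM and a 17-exon transcript at 20.2 FPKM. The latter, at chr7:102937873-103008371, also shared introns with the neighbouring gene PMPCB, and 58.9% of its 1872 bases lay in PSMC2 exons. With that share of its fragments, PSMC2 had 5264 fragments in shLacZ cells and 6035 in shPSPC1 cells, a log2 ratio of 0.17 after scaling to depth.

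The other 3 ATPases differed little. PSMC4, the most abundant of the ring, was at 112 ± 2.58 and 122 ± 2.66 FPKM (log2 ratio 0.12), PSMC3 at 89.6 and 92.8 (0.05), and PSMC5 at 47.5 and 44.8 (-0.08). By estimated fragments the intervals of PSMC4 were apart and those of PSMC3 and PSMC5 overlapped.

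**Figure D2:**
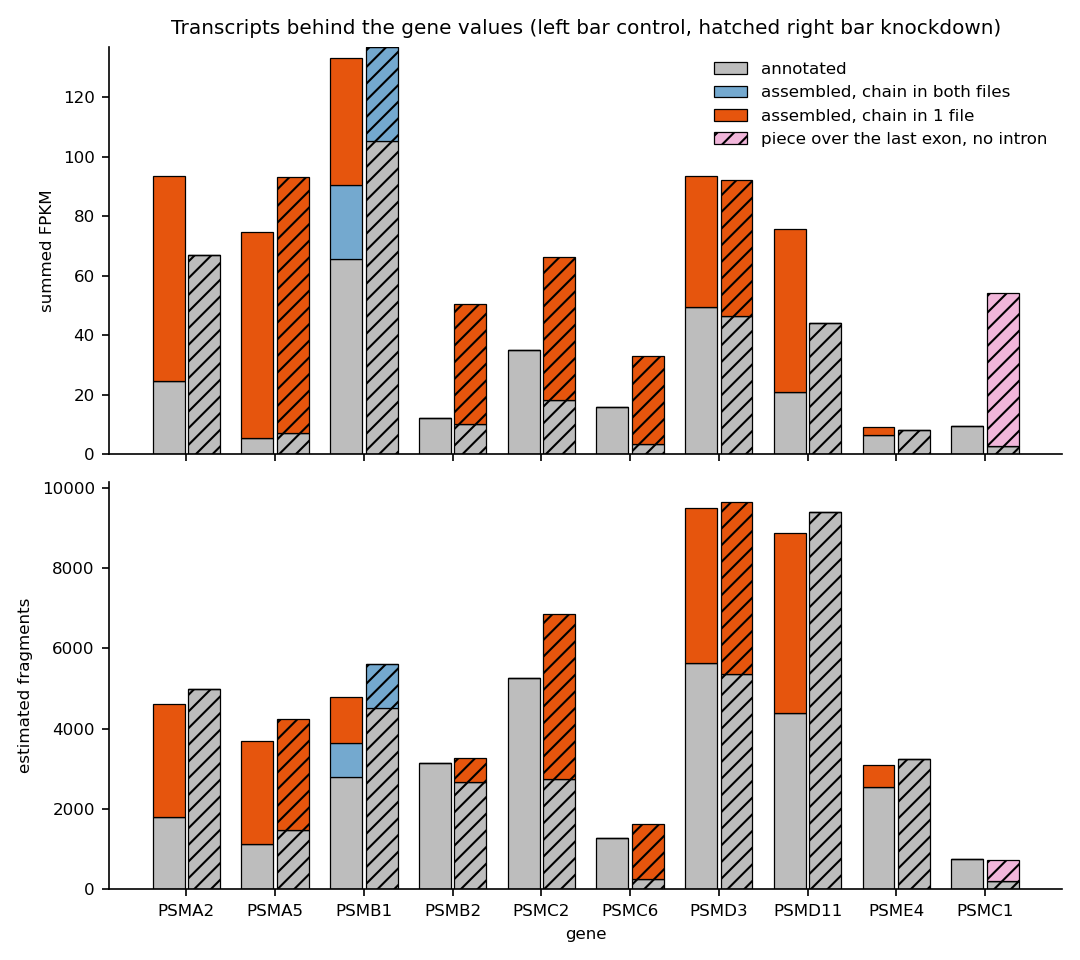
Summed FPKM (top) and estimated fragments (bottom) of the 9 genes with at least 0.2 of their FPKM in transcripts of 1 file, and of PSMC1, stacked by kind of transcript; left bars are the control and hatched bars the shPSPC1 library. The bars of PSMB2 differ by FPKM (12.2 and 50.6) and are close by fragments (3150 and 3263), and the piece over the last exon of PSMC1 brings its bars to 745 and 728 fragments.

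Over the 35 genes, 61 annotated transcripts were in the files. Of these, 36 were above 0 in both libraries, 25 were listed at 0 in both, and none was above 0 in 1 library alone. Each file held 14 assembled transcripts of these genes, of which 9 in shLacZ cells and 10 in the shPSPC1 file had an intron chain that the other file lacked. A chain that an annotated transcript of the other file had was not counted as lacking. This was so for an assembled PSMD1 transcript in shLacZ cells, at 29.4 FPKM. The annotated PSMD1 transcript was at 40.8 FPKM in shLacZ and 68.1 FPKM in shPSPC1 cells. Assembled transcripts of 1 file under 500 bases were 0 in shLacZ cells and 2 in the shPSPC1 file (PSMB2 and PSMC6), and carried 1.68% of the members' summed FPKM there. Of any length, transcripts of 1 file carried 9.09% of the FPKM in shLacZ cells and 7.76% in shPSPC1 cells. For 9 of the 35 genes (PSMA2, PSMA5, PSMB1, PSMB2, PSMC2, PSMC6, PSMD3, PSMD11 and PSME4) they carried at least 0.2 of the FPKM in at least 1 library, as for 33.6% of all genes and 28.2% of the 7108 genes at 5 FPKM or more in both. No assembled transcript was joined to 22 of the 35 in either file.

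The 3 other base subunits include receptors for ubiquitin. PSMD1 was at 70.1 and 68.1 FPKM, PSMD2 at 59.0 and 56.8, and the ubiquitin receptor PSMD4 at 60.3 and 56.1. By estimated fragments their log2 ratios were 0.01, -0.05 and -0.10, and the intervals of PSMD4 alone were apart.

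The lid was the particle closest to 0. By estimated fragments all 8 of its genes lay within 0.15 of 0, with a median of 0.00. PSMD8, the most abundant lid gene in both libraries, was at 171 ± 2.97 and 171 ± 2.95 FPKM. PSMD14, the deubiquitinase of the lid, was at 66.9 ± 1.75 and 62.6 ± 1.68 FPKM (log2 ratio -0.09), and was the lid gene whose intervals were apart by estimated fragments. PSMD7, its inactive partner, was at 102 FPKM in both. PSMD3, PSMD6, PSMD12 and PSMD13 by estimated fragments had ratios of 0.00, -0.02, 0.06 and 0.07 (log2). For PSMD3 each file held 1 assembled transcript that the other lacked, of 11 exons and 1726 bases at 43.9 FPKM in shLacZ cells, and of 12 exons and 1805 bases at 46.0 FPKM in shPSPC1 cells. The annotated transcript of PSMD3 was at 49.5 and 46.4 FPKM, so the gene's sums were 93.5 and 92.3 FPKM. PSMD11 was at 75.5 ± 1.97 FPKM in shLacZ cells and 44.1 ± 0.910 FPKM in shPSPC1 cells, a log2 ratio of -0.76. The control file held a 12-exon assembled transcript of 1621 bases at 54.7 FPKM, beside the annotated transcript of 3897 bases, which was at 20.9 and 44.1 FPKM. By estimated fragments PSMD11 had 8871 and 9406, a log2 ratio of 0.06, again with the opposite sign.

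The activators bind the ends of the core in place of the regulatory particle. PSME1 and PSME2 together form an activator ring that is linked to antigen processing. PSME1 was at 139 ± 3.45 FPKM in shLacZ cells and 104 ± 2.96 FPKM in shPSPC1 cells, and PSME2 at 67.0 ± 2.67 and 50.3 ± 2.30 FPKM. Their log2 ratios were -0.42 (-0.49 to -0.34) and -0.41 (-0.53 to -0.29) by both measures. Both had intervals apart, and neither reached the limit of 1. Each was carried by annotated transcripts alone, at chr14:24605378-24608176 on the plus strand and chr14:24612574-24615855 on the minus strand. The gene EMC9, on the other strand, overlaps the end of PSME1, and was listed at 0 fragments in shLacZ cells and 685 in shPSPC1 cells. PSME1 had 6529 and 4933 fragments, 74.3% of the control after scaling to depth, and the sum of both genes was at 84.7%. The extent of the overlap was not measured, and whether fragments were shared between both genes was not tested. PSME2 has 6 numbered pseudogenes in the gene table.

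The other activators were closer to 0. PSME3, whose ring is found in the nucleus, was at 34.6 ± 0.867 and 31.8 ± 0.825 FPKM, for a log2 ratio of -0.12 and intervals apart. PSME4, a single-chain nuclear activator, was at 9.05 and 8.22 FPKM. Its log2 ratio was -0.13 by summed FPKM and 0.05 by estimated fragments, and a 22-exon assembled transcript at 2.54 FPKM was in the shLacZ file alone.

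**Figure D3:**
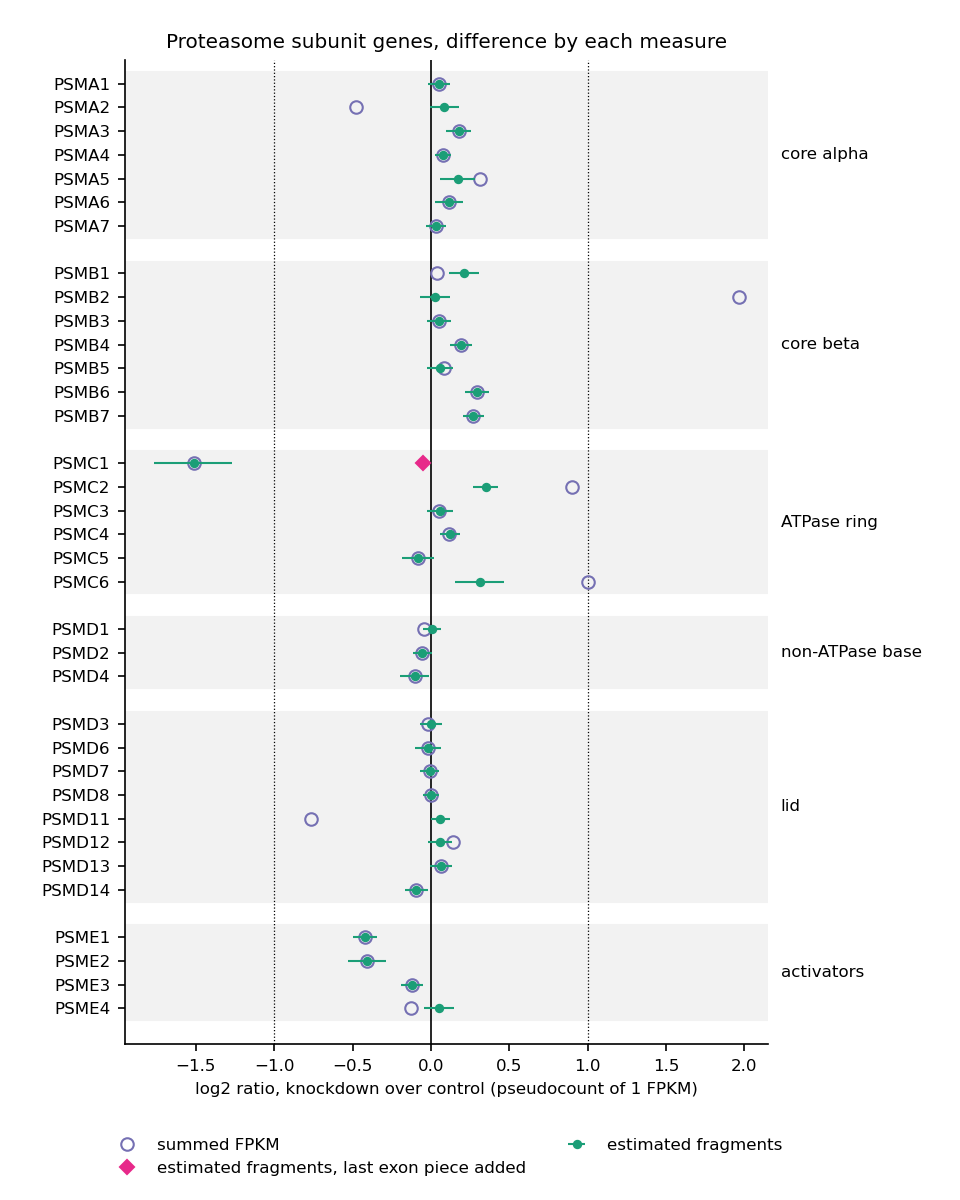
Log2 ratio of each gene, knockdown over control, by summed FPKM (open circles) and by estimated fragments (filled circles). Bars pair opposite ends of the intervals of both libraries and are not 95% intervals of the ratio. Dotted lines are at the limits of 1 and -1. Filled circles of all 14 core genes lie to the right of 0 and those of PSME1 and PSME2 at -0.42 and -0.41, and the diamond marks PSMC1 with the piece over its last exon (-0.05).

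The immune counterparts of the catalytic subunits were lower in shPSPC1 cells, in the direction of PSME1 and PSME2. PSMB8 was at 26.0 ± 1.39 and 16.5 ± 1.10 FPKM (log2 ratio -0.62), PSMB9 at 9.47 ± 0.872 and 6.26 ± 0.705 FPKM (-0.53), and PSMB10 at 19.2 ± 1.27 and 16.2 ± 1.16 FPKM (-0.23). Their intervals were apart in each case, and none passed the rule of size. Relative to the subunit it can replace, PSMB9 was at 7.09% of PSMB6 in shLacZ cells and 3.82% in shPSPC1 cells. PSMB10 was at 14.1% and 9.89% of PSMB7, and PSMB8 at 28.0% and 16.8% of PSMB5, each as a ratio of FPKM. The germ-cell subunit PSMA8 and the thymic subunit PSMB11 were listed at 0 in both libraries.

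**Figure D4:**
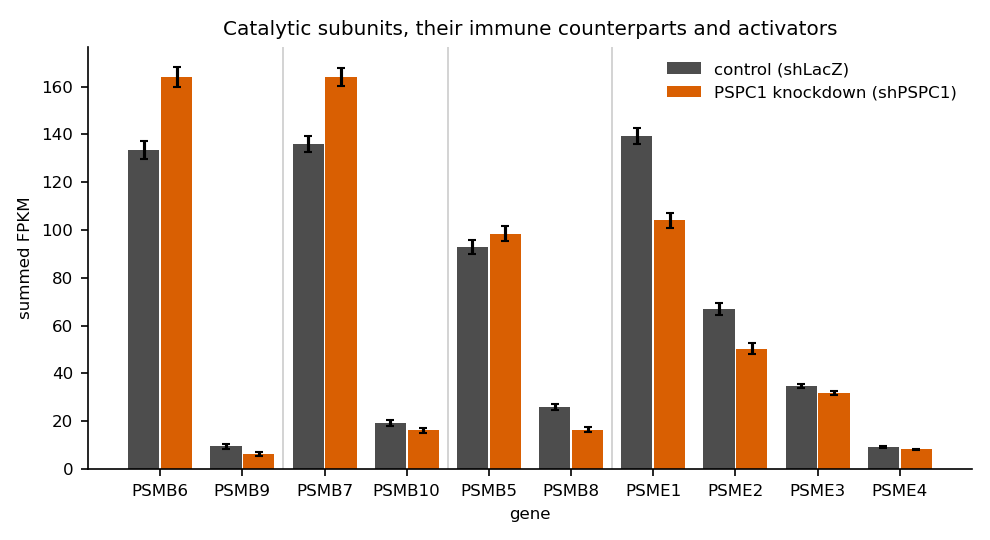
Summed FPKM (bars from 0) of the 3 catalytic subunits, each beside its immune counterpart, and of the 4 activator genes. The control is grey and the shPSPC1 library orange, with ± values combined from the 95% Cufflinks intervals of transcripts. PSMB6 and PSMB7 are higher in shPSPC1 cells (164 FPKM each against 134 and 136), while PSMB8, PSMB9, PSMB10, PSME1 and PSME2 are lower.

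Around the complex, 48 further genes of the pathway were listed, and 47 had values in both files. By the rule of size, 0 of the 47 were called higher and 0 lower, by summed FPKM and by estimated fragments alike. Only the 44 of them that reached 1 FPKM in a library could be called. Of all genes, 3.7% were called in either direction by summed FPKM and 3.22% by estimated fragments. Of the 47 genes, 3 with at least 5 FPKM in a library had an absolute log2 ratio of 0.58 or more by estimated fragments. Among all genes with at least 5 FPKM in a library, 6.54% did. These were PSMB8, MAFK and USP14. MAFK, a small Maf protein that pairs with NFE2L1 and NFE2L2 on antioxidant response elements, was at 14.4 ± 0.579 and 23.4 ± 0.745 FPKM (log2 ratio 0.67). USP14, a deubiquitinase that binds the regulatory particle, was at 5.13 ± 0.334 and 3.88 ± 0.284 FPKM, and its log2 ratio was -0.33 by summed FPKM and -0.59 by estimated fragments. UCHL5, another proteasome-bound deubiquitinase, was listed at 0 in both, for all 5 of its annotated transcripts. Whether its RNA was absent from the cells was not tested.

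Assembly factors help the rings to form. By estimated fragments 8 of 9 lay above 0, where 50.9% of all genes did, with a median of 0.06, and the intervals of POMP alone were apart. POMP, the most abundant of the group, which matures the core, was at 70.9 ± 3.38 and 79.4 ± 3.67 FPKM (log2 ratio 0.16). Proteins bound to the particle and inhibitors had a median of 0.00 by estimated fragments. The small lid subunit SEM1 was at 161 FPKM in both libraries, but at 2076 and 2617 estimated fragments, a log2 ratio of 0.30 (0.17 to 0.44) with intervals apart. Shuttle proteins and the unfoldase had a median of -0.03 by estimated fragments. VCP, the unfoldase, was at 151 ± 2.07 and 142 ± 1.64 FPKM (-0.09 by summed FPKM and -0.05 by estimated fragments).

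The factors that control subunit genes did not move one way. NFE2L1 was at 22.3 ± 0.635 and 19.6 ± 0.541 FPKM, a log2 ratio of -0.17 by summed FPKM and -0.18 by estimated fragments. NFE2L2, the factor of the oxidative response, was at 14.0 ± 0.836 and 16.3 ± 0.831 FPKM. Its log2 ratio was 0.21 by summed FPKM and 0.30 (0.16 to 0.45) by estimated fragments, with intervals apart. Of the 8 genes in that group 4 lay above 0 and 4 below by estimated fragments, with a median of 0.02. UBB, a polyubiquitin gene and the most abundant gene of the ubiquitin group in both libraries, was at 881 ± 8.80 and 887 ± 8.77 FPKM (0.01). Protein levels and proteasome activity were not measured.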

How the data were processed

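RNA-seq of A549 cells was analysed, with 1 control and 1 knockdown library. Cufflinks 2.1.1, TopHat2 2.0.7 and CASAVA 1.8.2 are named in the submitters' processing notes. The authors deposited 1 file of transcripts per library, and its FPKM and 95% intervals were computed by the authors, per the file headers and attribute names. Strand, poly(A) selection and genome build are not given in the sources used here; coordinates of genes and transcripts are those of the files, whose scaffold names are those of GRCh37.

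Transcripts were joined to genes by RefSeq accession, and assembled transcripts with a strand by a shared intron (Python 3.11.15, pandas 2.3.3). A gene's FPKM is the sum over its transcripts, and half-widths were squared, summed and rooted. Depth and fragment length were estimated from the deposited intervals. Code was tested on simulated data. Full values were given for the members with the 6 largest log2 ratios by either measure, those past the rule of size and the most abundant of each particle; transcripts were described where at least 0.2 of a gene's FPKM was in chains of 1 file. Pathway genes were named past the rule of size, at a log2 ratio of 0.58 or more by estimated fragments with at least 5 FPKM, or as the most abundant of their group; NFE2L2, UCHL5 and the other immune and tissue-specific core subunits were named outside that rule, after their values were seen. Members, lists and rules were chosen with earlier results of these data known. The listed pathway gene ECPAS was not analysed here. The values of 1 further listed gene are not reported here. Alternatives are in the closing section.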

Additional observations from a re-analysis of the deposited data

Results flagged for a closer look

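Assembled pieces without a strand lie inside some of the subunit genes and entered no gene value. In the control file 5 such pieces held 15.7 fragments per 1000000 of the library's fragments, and in the knockdown file 11 held 22.3 per 1000000. Pieces without a strand were also more numerous over the whole knockdown file (36255) than over the whole control file (29208). Their fragments over all genes were not counted. None touched an annotated exon. By gene the estimated fragments were 744 and 586 in PSMD14, 71.0 and 135 in PSMA1, 0 and 391 in PSMC6, and 0 and 163 in PSMC1, control first. PSMC2 and PSME4 had 57.6 and 9.64 fragments in the control file and no piece in the knockdown file.

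The assembled piece over the last exon of PSMC1 was at 51.4 FPKM in the knockdown file and was absent from the control file, and the values of PSMC1 by joined introns do not include it. It held 70.9% of the gene's fragments in that library when counted with it. Whether its fragments came from PSMC1 or from 1 of its copies was not tested.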

How the results depend on the processing

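With 1 library per group no interval covers variation between cultures, and no library could be left out. No paired analysis was possible because each group has 1 library. Of the subunit genes called higher (2 by summed FPKM), 0 remained by estimated fragments, 0 without short transcripts of 1 file, 1 after rescaling to a median ratio of 0 (PSMC6 was then at 0.99), and 0 by estimated fragments with transcripts joined by exonic bases, which was chosen after seeing the data. The count called lower (1) was 2 with annotated transcripts alone, 2 with intron chains in both files alone (PSMC1 and PSMC6 in each), 2 at a fold limit of 1.5 (PSMC1 and PSMD11), and 0 when transcripts were joined by exonic bases, by summed FPKM or by estimated fragments. With annotated transcripts alone, or with intron chains in both files alone, PSMA2 (1.40) and PSMD11 (1.04) were called higher. PSMB2 reversed to -0.24 with annotated transcripts alone, with intron chains in both files alone, and without short transcripts. PSMC6 reversed to -2.01 with annotated transcripts or shared chains alone, and PSMC1 to 2.42 by summed FPKM when joined by exonic bases. With that joining, 3 subunit genes were called higher by summed FPKM (PSMB2, PSMC1 and PSMC6). Other pathway genes called higher (0) became 2 with annotated transcripts alone (PSMD9 and ZFAND5) and 1 with shared chains (POMP), and those called lower (0) became 1 with shared chains (PSMD9) and 1 without short transcripts. The median log2 ratio of the beta genes (0.19) was 0.085 without short transcripts. That of the ATPase genes (0.08) was -0.50 with annotated transcripts alone, -0.50 with shared chains, and 0.51 when joined by exonic bases. The share of FPKM in short transcripts of 1 file (0% in shLacZ and 1.68% in shPSPC1 cells) was 0% in shPSPC1 cells under 300 bases, 5.83% and 4.35% under 1000 bases, and 9.09% and 7.76% at any length. With a pseudocount of 0.1 FPKM, none of the 35 ratios changed its call or its sign. The settings differ in the transcripts they count, and no further cause was tested.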
